A study of Mus musculus with 9 samples.

Results

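The constitutive proteasome genes are the 37 genes, of 32287 in the expression matrices, whose symbol starts with Psma, Psmb, Psmc or Psmd followed by a digit, with the inducible catalytic subunits Psmb8, Psmb9 and Psmb10 left out. No pseudogene met the rule. Of the 37 genes, 31 encode subunits of the 26S proteasome, and their levels were followed from quiescent neural stem cells (NSCs) to neuroblasts and in microglia and ensheathing glia. The measurement was droplet single-cell RNA-seq, in which each captured RNA molecule is counted once by its unique molecular identifier (UMI).

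The 26S proteasome degrades proteins that carry ubiquitin chains. Its core particle (20S) is a barrel of outer alpha rings and inner beta rings, and the beta rings hold the catalytic sites. The regulatory particle (19S) caps the barrel: its ATPases unfold the substrate and its non-ATPase subunits bind ubiquitin and remove it. After interferon signalling, cells can replace the 3 catalytic beta subunits by the inducible ones, which gives the immunoproteasome. 

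The study compared 4 groups, each 1 reaction of 2 male mice: WT mice of 16 weeks (WT young) and of 80 weeks (WT old), and KO mice of 16 weeks (KO young) and of 92 to 105 weeks (KO old). The WT mice were of the TiCY strain and the KO mice were TiCY-IFNAGRKO, which lack the receptors for type I and type II interferons. All mice carried a tamoxifen-inducible Cre driven by Tlx and an eYFP reporter, and the time from tamoxifen to dissection was 6 weeks in WT young and 9 weeks in the other groups. The strain names in the paper also list the Fas allele Fastm1Cgn for both genotypes. Cells came from the ventricular-subventricular zone (vSVZ) and the rest of the brain, labelled as olfactory bulb, rostral migratory stream and striatum. The sort removed CD45+, Ter119+ and O4+ cells, took GLAST+ and eYFP+ cells from the vSVZ, and took eYFP+ cells and eYFP-negative, PSANCAM-low cells from the rest of the brain, so the microglia described here are those that passed a CD45 gate. Hashtag antibodies marked tissue and mouse.

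The 4 libraries held 27096070 to 78028524 UMIs, and 18055 cells were kept, with a median of 5067 UMIs per cell in WT young and 7091 to 7437 in the others; 30 barcode sequences occurred in more than 1 library. Cell classes were named by marker genes from 29 clusters made without the 37 genes, the other proteasome genes or the interferon genes; each class is named for its likeness to a cell type by these markers alone. A hashtag was called for 31.6% of the cells, and the quiescent class was limited to the 1906 cells with a vSVZ hashtag, which also bear astrocyte markers. The other classes were not limited by tissue or hashtag, so comparisons with the quiescent class also differ in this. A hashtag was called for 18.4% of activated NSCs, 10.2% of transit-amplifying progenitors (TAPs) and 10.3% of neuroblasts. The activated class of the old libraries held more quiescent marker RNA (5359 and 5779 UMIs per 1000000 UMIs, written CPM from here, over the list) than that of the young libraries (1707 and 2373). Activated NSCs also carried the neuroblast list at 4022 to 6171 CPM, above their own list at 2663 to 3777, and TAPs carried it at 6896 to 9138, beside 5384 to 6681 for their own. Ensheathing glia had the activated NSC list at 15101 to 17426 CPM and the oligodendrocyte list at 7081 to 7984, beside 14098 to 15432 for their own list. The part of these markers in the results was not tested. Ifngr1 was at 46.9 and 85.4 CPM in the WT libraries and at 2.88 and 4.40 in the KO libraries, and Ifnar1 at 21.2 and 28.6 against 8.08 and 6.56. Each group is 1 reaction, so age or genotype and reaction cannot be told apart, and p-values over the 4 libraries of a class measure only the spread between these libraries.

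The promoters of 30 of the 37 genes were found in RefSeq (GRCm38.p6), and 4 are shown because the differences described here turn on these genes: the catalytic subunits Psmb5 and Psmb6, the ATPase Psmc6 and the thymic catalytic subunit Psmb11. Each stretch runs from 250 bases before to 50 bases after the start that RefSeq annotates, 5′ to 3′ on the strand of the gene, and capitals mark TGACNNNGC, the shape of an antioxidant response element, on either strand. The Psmb5 stretch is chr14:54617946-54618245 (minus strand), that of Psmb6 chr11:70525107-70525406 (plus), that of Psmc6 chr14:45329574-45329873 (plus) and that of Psmb11 chr14:54625060-54625359 (plus).
Psmb5: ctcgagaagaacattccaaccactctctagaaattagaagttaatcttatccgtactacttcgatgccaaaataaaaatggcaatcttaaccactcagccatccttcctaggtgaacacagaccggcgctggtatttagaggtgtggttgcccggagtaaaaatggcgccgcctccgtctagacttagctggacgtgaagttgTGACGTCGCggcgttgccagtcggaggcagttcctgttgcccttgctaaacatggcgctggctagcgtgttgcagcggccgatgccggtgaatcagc
Psmb6: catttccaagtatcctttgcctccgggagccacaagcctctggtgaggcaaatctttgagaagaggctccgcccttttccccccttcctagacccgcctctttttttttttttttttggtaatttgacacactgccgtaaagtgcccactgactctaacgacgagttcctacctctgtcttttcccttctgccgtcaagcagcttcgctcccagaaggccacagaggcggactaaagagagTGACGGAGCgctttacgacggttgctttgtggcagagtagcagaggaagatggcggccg
Psmc6: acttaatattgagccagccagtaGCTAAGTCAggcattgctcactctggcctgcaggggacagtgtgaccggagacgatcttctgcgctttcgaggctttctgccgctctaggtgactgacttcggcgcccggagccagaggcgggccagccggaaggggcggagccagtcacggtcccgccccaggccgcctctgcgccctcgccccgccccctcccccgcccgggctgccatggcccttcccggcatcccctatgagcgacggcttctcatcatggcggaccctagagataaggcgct
Psmb11: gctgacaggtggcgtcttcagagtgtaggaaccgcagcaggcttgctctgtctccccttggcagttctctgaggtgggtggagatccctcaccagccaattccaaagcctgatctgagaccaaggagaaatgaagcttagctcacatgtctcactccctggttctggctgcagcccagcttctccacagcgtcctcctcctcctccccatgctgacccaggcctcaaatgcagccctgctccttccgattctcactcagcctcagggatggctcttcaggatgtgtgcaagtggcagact
The motif lay 47 bases before the start in Psmb5, 9 bases before it in Psmb6 and 227 bases before it in Psmc6, and these letters were not in the Psmb11 window. Among the 25 subunit promoters that were found, 4 (16.0%; the fourth was Psmd12) held the motif, against 12.5% of 27025 promoters of the same length. CCAAT occurred in 40.0% of the subunit promoters and 37.9% of all. Neither share stood far from its background.

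Summed over the 37 genes, proteasome RNA was lowest in microglia and highest in activated NSCs and transit-amplifying progenitors (TAPs). Values of 4 libraries are given in a fixed order, both WT libraries first, then both KO libraries, and young before old. Quiescent NSCs held 5151, 4207, 4543 and 4316 CPM of these genes (4554 ± 422, SD, n = 4 libraries). Activated NSCs held 8746, 6357, 7571 and 6631 (7326 ± 1080). Each library was higher in the activated class, and the ranges of both classes did not overlap. TAPs held 8692, 6457, 7629 and 6798 (7394 ± 996), a range that overlapped with that of the activated class. Neuroblasts stood between, at 6998, 5881, 6114 and 5746 (6185 ± 563). Microglia held 3632, 2930, 3255 and 3230 (3262 ± 288) and ensheathing glia 4816, 4097, 4189 and 4014 (4279 ± 365), and the 4 libraries of ensheathing glia overlapped with those of the quiescent cells. Within each library, however, ensheathing glia stood below quiescent NSCs. WT young gave the highest value in each of the 6 classes. Per cell, the mean over libraries rose from 32.3 UMIs of these genes in quiescent NSCs to 88.2 in activated NSCs and 96.9 in TAPs, with 33.4 in neuroblasts, 18.0 in microglia and 33.6 in ensheathing glia; total UMIs per cell moved with this, with medians of 6956 in the quiescent clusters of all tissues, 11512 in activated NSCs, 12592 in TAPs and 4963 in neuroblasts.

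**Figure D1:**
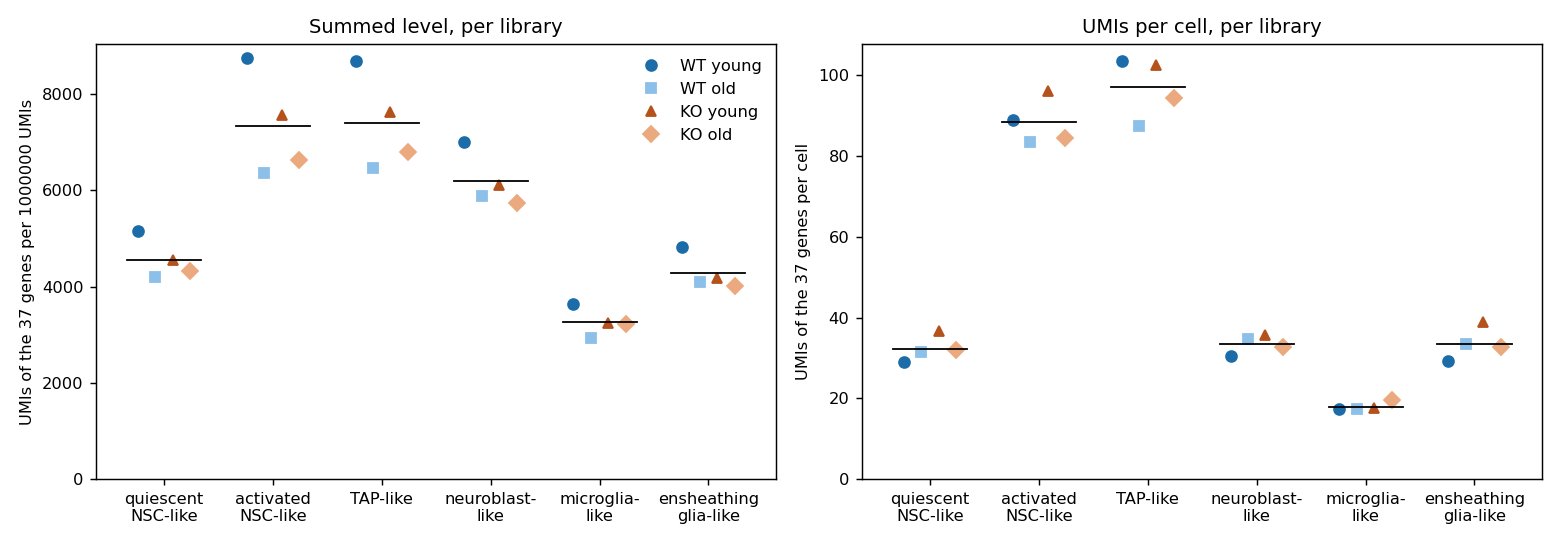
UMIs of the 37 constitutive proteasome genes in each cell class, per 1000000 UMIs (left) and per cell (right); each point is 1 library and the black line the mean of the 4 libraries. Activated NSC-like cells (6357 to 8746 CPM) sat above quiescent NSC-like cells (4207 to 5151) in all libraries, and microglia-like cells were lowest (2930 to 3632).

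From quiescent to activated NSCs, most subunits of both particles were higher with the clusters used here. With edgeR's quasi-likelihood test and the library as a block, 26 of the 36 genes tested were higher and 1 was lower, where 30.1% of all 12904 genes tested were called higher and 35.9% lower. The 26 include Psmb11, which had 15 UMIs in activated and 2 in quiescent NSCs. The median difference of the 36 genes was 0.35 on the log2 scale, beside -0.08 for all genes. The count depended on the clustering: with coarser clusters (Leiden resolution 0.5), 13 of 36 were higher, the median was 0.16 (all genes 0.06), and the summed level of activated NSCs was 5900 CPM in place of 7326. The share of all genes called with these coarser clusters is not given here, so the 13 have no background. At that coarser resolution the activated class was 1 cluster of 1657 cells, with Prss56, Crym, Thbs4 and Ecel1 among its leading genes. At resolution 1, a cluster of 1011 cells with these leading genes was classed as quiescent. The part of such cells in the lower count was not tested. Psma8, the testis form of an alpha subunit, was not tested: it had 41 UMIs in all cells. Among the 31 subunits, the alpha ring had 5 of 7 higher, the beta ring 6 of 7, the ATPases 4 of 6 and the non-ATPase subunits 8 of 11.

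Among the subunits that were higher, the ATPase Psmc6 had the largest difference. It was at 124, 110, 117 and 120 CPM in quiescent NSCs and at 313, 223, 287 and 260 in activated NSCs, so that the lowest activated library stood well above the highest quiescent one (log2 difference 0.89 ± 0.10 SE, edgeR adjusted p = 4.6e-09). Psma7, an alpha subunit, was at 302, 237, 285 and 240 against 696, 475, 585 and 480 (0.75 ± 0.10, edgeR adjusted p = 7.3e-08). Both genes were higher in 4 of 4 libraries. Psmd14, the subunit that cuts ubiquitin chains off the substrate, went from 85.5 ± 7.1 to 160 ± 24 CPM (0.59 ± 0.09, edgeR adjusted p = 1.2e-06).
The catalytic subunits differed among themselves. Psmb7, which carries the trypsin-like site, was higher by 0.42 ± 0.09 on the log2 scale and Psmb6, with the caspase-like site, by 0.38 ± 0.09. Psmb5, with the chymotrypsin-like site, did not pass the test (0.11 ± 0.09, edgeR adjusted p = 0.28), although it stood at 297 to 380 CPM in the activated libraries and 222 to 285 in the quiescent ones. The scale used here (TMM) rests on a trimmed mean of the log2 differences between sums. It scaled total UMIs of the activated class by factors of 1.12 to 1.25. Psmb5 is also the subunit whose transcript ends shared most 31-base stretches with other genes, 66.9%, all with Gm3375 and Psmb5-ps. The smallest differences in the other groups were those of Psmc1 (0.21 ± 0.10) and Psmd8 (0.03 ± 0.10), neither of which passed.
The gene that was lower was Psma3 (-0.91 ± 0.22, edgeR adjusted p = 0.00062), at 10.5, 21.0, 12.5 and 22.3 CPM in quiescent and 7.44, 5.29, 13.8 and 11.1 in activated cells. It was lower in 3 of 4 libraries, and the groups overlapped. Psma3 counted 1837 UMIs in all cells, against 8010 to 50146 for the other 30 subunits. Of its 31-base stretches, 27.5% were shared with 1425 other genes, so its count is uncertain. Psma5, Psmc1, Psmd2 and Psmb3 shared larger parts of their stretches, and Psma4 a similar part, though each with far fewer genes. Whether transcripts of those genes enter the counts of these subunits was not tested.
Of the chaperones that assemble the ATPase ring, Psmd10 was higher (0.35 ± 0.14), whereas Psmd5 (0.29 ± 0.14) and Psmd9 (-0.01 ± 0.11) did not pass. Psmc3ip fits the symbol rule but is a factor of meiotic recombination and no subunit. It was at 17.5, 10.3, 11.9 and 9.67 CPM in quiescent and 116, 46.5, 86.8 and 60.3 in activated cells, a log2 difference of 2.39 ± 0.17.

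Between activated NSCs and TAPs the result depended on the scale. On the TMM scale, 19 of 36 genes were higher and 0 lower, beside 21.2% and 19.7% of all genes, with a median of 0.26 (all genes 0.00). With plain library sizes, 5 were higher and 4 lower and the median was 0.02, while that of all genes was -0.23. No share of all genes stands beside these counts. Within libraries, the plain levels of the 31 subunits differed by medians of -0.02, 0.05, 0.03 and 0.02, and 14 to 17 of 31 were higher. The count was also 6 without the KO young library.
Psmc1 had the largest difference, from 119, 102, 127 and 98.4 CPM in activated cells to 149, 125, 176 and 141 in TAPs (0.66 ± 0.10, edgeR adjusted p = 3.0e-06), higher in 4 of 4 libraries. Psma1 (0.43 ± 0.11), Psmb7 (0.48 ± 0.09), Psmb6 (0.42 ± 0.09) and Psmd2 (0.35 ± 0.08), a large scaffold subunit of the regulatory particle, were also higher. Psma4 (0.02 ± 0.09), Psmb3 (0.14 ± 0.11), Psmb5 (0.21 ± 0.09), Psmc5 (-0.03 ± 0.10) and Psmd1 (0.00 ± 0.10) did not pass, and with plain library sizes Psma4 (-0.22) and Psmd1 (-0.24) stood below 0. Psmd5 was higher by 0.57 ± 0.14 and Psmd9 by 0.31 ± 0.12, while Psmd10 (-0.23 ± 0.14) did not pass. Psmc3ip was again higher, by 0.43 ± 0.14.

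From TAPs to neuroblasts the subunits were lower or not called. Of the 36 genes, 0 were higher and 20 lower, beside 25.3% and 26.8% of all genes, with a median of -0.29 (all genes 0.01). The beta ring had 7 of 7 lower, the ATPases 5 of 6, the non-ATPase subunits 6 of 11 and the alpha ring 1 of 7. Without the library block the count was 13. Within libraries, the plain levels of 1, 12, 1 and 5 of the 31 subunits were higher in neuroblasts, with medians of -0.27, -0.17, -0.29 and -0.28. The TAP sum of WT old held 36 cells.
Psmb2, a non-catalytic beta subunit, went from 403 ± 85 to 270 ± 35 CPM (-0.61 ± 0.10, edgeR adjusted p = 4.7e-06), and the 4 libraries of both classes did not overlap. Among the ATPases, Psmc5 was lower (-0.54 ± 0.10) and, among the non-ATPase subunits, Psmd13 (-0.55 ± 0.10); each was lower in 3 of 4 libraries. The catalytic subunits Psmb5 (-0.35 ± 0.09), Psmb6 (-0.40 ± 0.09) and Psmb7 (-0.32 ± 0.09) were all lower. Psma4 (-0.22 ± 0.09) was the 1 alpha subunit called. Psmc6 did not pass (344 ± 12 CPM in TAPs and 323 ± 28 CPM in neuroblasts, -0.11 ± 0.10), nor did Psmd11 (-0.09 ± 0.11); the smallest beta ring difference was that of Psmb4 (-0.23 ± 0.09). None of the 3 chaperones passed. Psmc3ip was much lower (-1.76 ± 0.14).

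Compared with quiescent NSCs, neuroblasts had 22 of 36 genes higher and 1 lower, beside 36.5% and 39.9% of all genes, and a median of 0.33 (all genes -0.04). Psmc6 stood out with 329, 293, 310 and 359 CPM against 124, 110, 117 and 120 (1.35 ± 0.10, edgeR adjusted p = 2.6e-13). Psma7 (0.73 ± 0.10), Psmd5 (0.62 ± 0.13), Psmd14 (0.59 ± 0.09), Psmb7 (0.58 ± 0.09) and Psmb6 (0.40 ± 0.09) were higher, each in 4 of 4 libraries. Psmb5 was at 262 ± 40 CPM in neuroblasts and 249 ± 26 in quiescent NSCs and did not pass (-0.03 ± 0.09). Psmc5 was the gene called lower (-0.26 ± 0.10), a call that was lost with plain library sizes, without the block and in 3 of the 4 fits that left out a library. Psma3 (-0.22 ± 0.19), Psmb3 (-0.12 ± 0.10) and Psmd13 (-0.13 ± 0.10) did not pass.

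**Figure D2:**
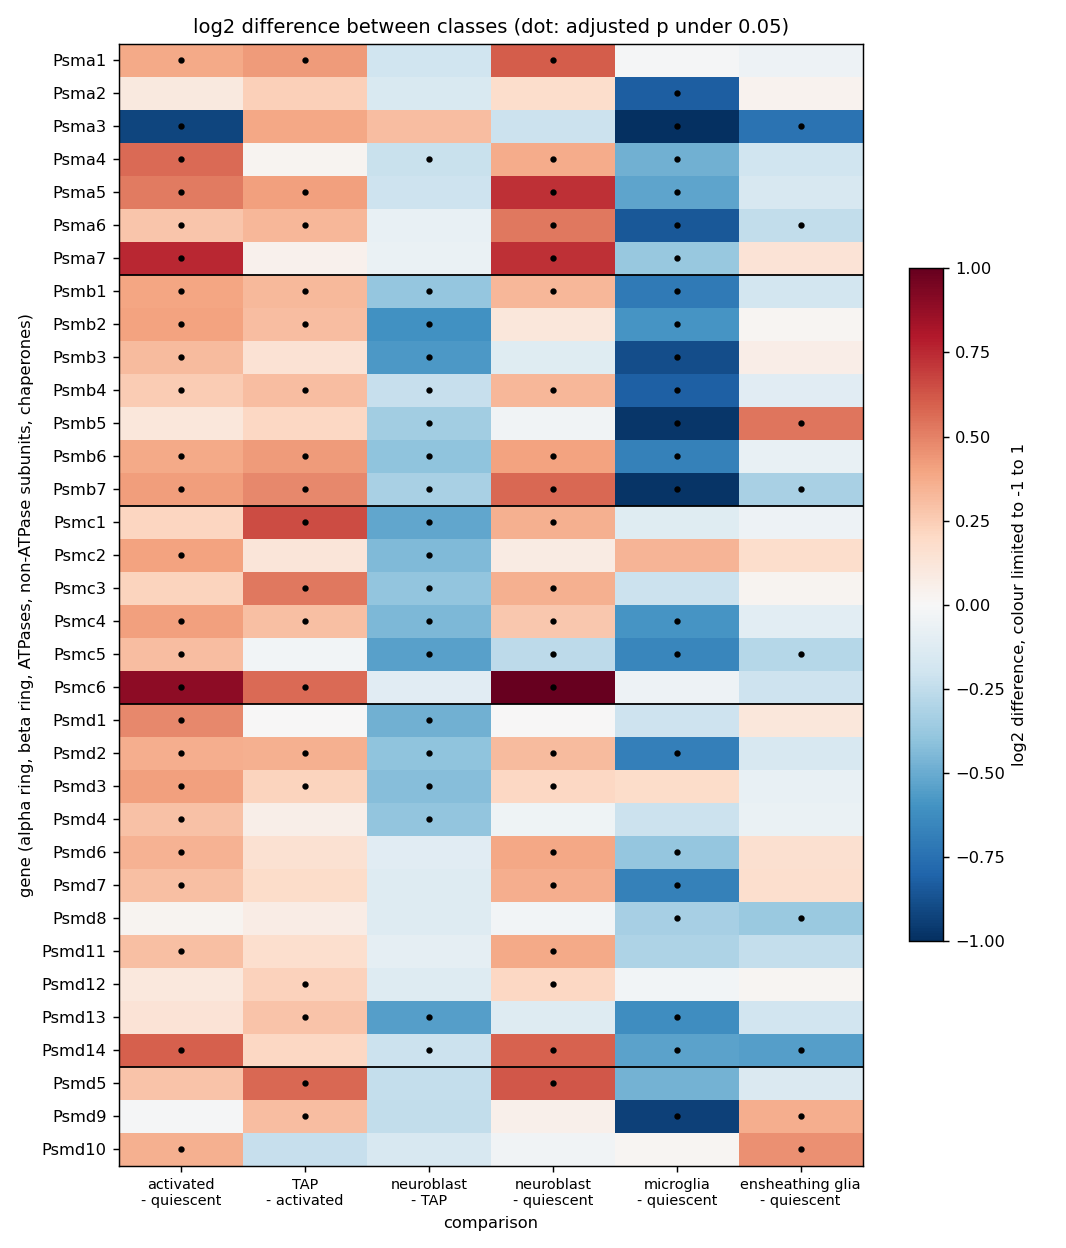
Log2 difference of each of the 31 subunits and 3 assembly chaperones (rows) in 6 comparisons between cell classes (columns); red is higher in the class named first, and a dot marks an edgeR adjusted p under 0.05. Red prevails from quiescent to activated NSC-like cells, blue from TAP-like cells to neuroblast-like cells and in microglia-like cells, where all beta ring genes carry a dot.

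Microglia had less core particle RNA than quiescent NSCs. Of the 36 genes, 0 were higher and 23 lower, beside 26.2% and 33.9% of all genes, and the median was -0.53 (all genes -0.24). Of the 14 core subunits 13 were lower, all but Psma1 (109 ± 26 against 106 ± 11 CPM), while 8 of the 17 regulatory subunits were. Psmb5 was at 141, 137, 119 and 123 CPM in microglia against 285, 222, 246 and 242 (-0.97 ± 0.11, edgeR adjusted p = 9.0e-09), with no overlap. Psmb7 (-0.98 ± 0.18) and Psmb6 (-0.68 ± 0.12) were lower too, and the smallest beta ring difference was that of Psmb2 (-0.59 ± 0.12). Psma3 had the largest difference of all subunits (-1.92 ± 0.50) on 7 UMIs in microglia. In the regulatory particle, Psmc5 (-0.65 ± 0.16) and Psmd2 (-0.69 ± 0.13) were lower, and Psmc2 (0.34 ± 0.16) and Psmd3 (0.18 ± 0.13) did not pass. Psmd9 was lower (-0.93 ± 0.23), Psmd5 (-0.47 ± 0.26) and Psmd10 (0.02 ± 0.23) were not called. Psmc3ip was lower (-2.15 ± 0.58) on 5 UMIs.

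The ratio of regulatory to core subunit UMIs set microglia apart in each library. It was 0.940, 0.960, 1.01 and 0.962 in microglia, and between 0.662 and 0.769 in every library of the other 5 classes, with no overlap. The ratio is compared here between classes, since capture differs between genes. The 3 inducible catalytic subunits were higher in microglia. Psmb8 was at 137 ± 24 CPM in microglia and 15.6 ± 8.0 in quiescent NSCs (3.27 ± 0.31), Psmb9 at 69.0 ± 26 and 6.25 ± 2.6 (3.51 ± 0.36) and Psmb10 at 88.2 ± 15 and 45.4 ± 5.9 (0.94 ± 0.21). Their UMIs divided by those of Psmb5, Psmb6 and Psmb7 came to 1.10, 0.790, 0.866 and 0.912 in microglia. In quiescent NSCs this ratio was 0.0920, 0.177, 0.0982 and 0.121, in ensheathing glia 0.149, 0.144, 0.0717 and 0.0998, and in activated NSCs, TAPs and neuroblasts between 0.00850 and 0.0507. The lineage classes that follow quiescence thus lay below every quiescent library.

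**Figure D3:**
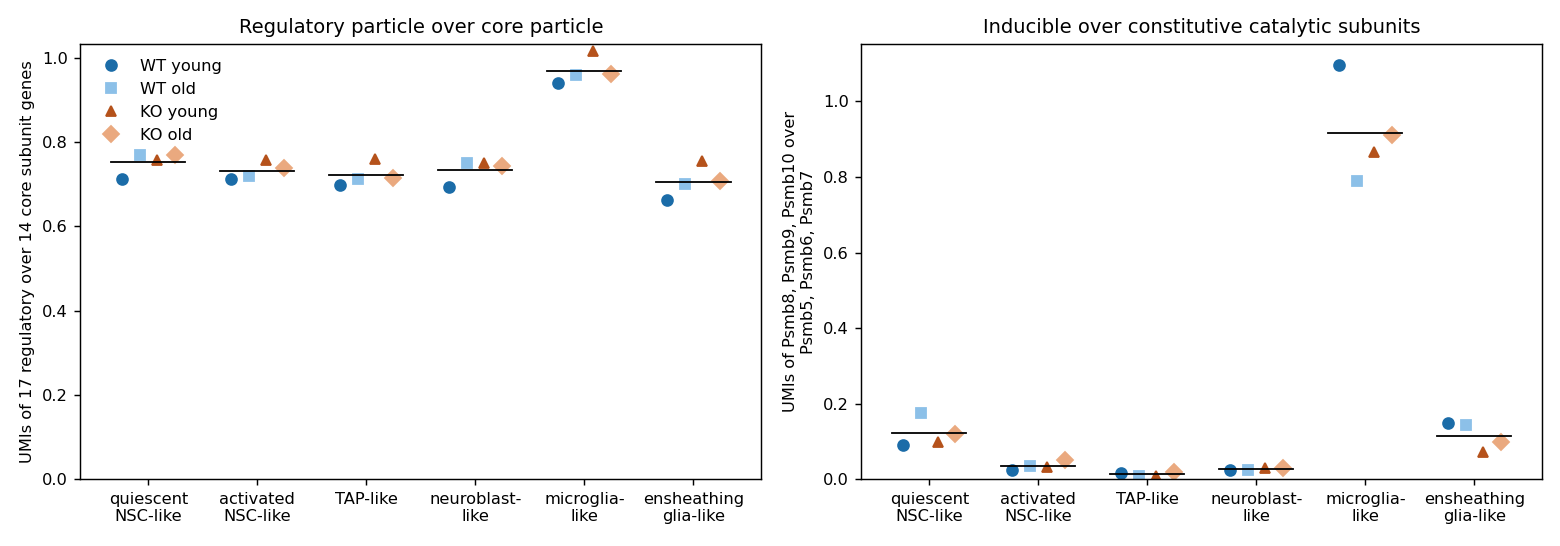
Ratio of UMIs of the 17 regulatory to the 14 core subunit genes (left) and of the 3 inducible to the 3 constitutive catalytic subunit genes (right), by cell class; points are libraries and lines their means. Microglia-like cells lay apart in both, at 0.940 to 1.01 on the left and 0.790 to 1.10 on the right.

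Ensheathing glia, the glia that wrap the olfactory axons, differed little from quiescent NSCs on the TMM scale. Of the 36 genes, 5 were higher and 6 lower, beside 26.2% and 25.7% of all genes. The median was -0.07 (all genes -0.01), and 3 were lower without KO young or without KO old. With plain library sizes 14 were lower. Within libraries, the plain levels of the 31 subunits differed by medians of -0.19, -0.12, -0.24 and -0.18, and 5 to 7 of 31 were higher. Psmb5 was the 1 subunit called higher by the test, at 416, 315, 329 and 310 CPM against 285, 222, 246 and 242 (0.53 ± 0.09, edgeR adjusted p = 5.5e-06). The other catalytic subunits did not share this: Psmb7 was lower (-0.33 ± 0.10) and Psmb6 did not pass (-0.08 ± 0.09). Psmd14 (-0.55 ± 0.10), Psma3 (-0.74 ± 0.21), Psmd8 (-0.37 ± 0.10), Psmc5 (-0.29 ± 0.10) and Psma6 (-0.25 ± 0.10) were lower as well, and Psma7 (0.13 ± 0.10), Psmc2 (0.18 ± 0.11) and Psmd7 (0.17 ± 0.10) did not pass. Psmd10 (0.46 ± 0.14), Psmd9 (0.36 ± 0.11) and Psmc3ip (0.98 ± 0.18) were higher, and Psmd5 (-0.15 ± 0.14) was not called.

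The largest difference of any of the genes was that of Psmb11, at chr14:54621433-54629556 (GENCODE) on the plus strand. Psmb11 encodes the catalytic subunit of the thymoproteasome and is known from the epithelium of the thymic cortex. It was at 59.1, 52.6, 39.2 and 46.1 CPM in ensheathing glia (49.3 ± 8.5) and at 0.438, 0.313, 0 and 0 in quiescent NSCs, where 2 UMIs were counted in all. Pooled over libraries, its rate was 325 times that in quiescent NSCs, with an exact 95% interval of 89.6 to 2685 that covers counting error only. Against activated NSCs (15 UMIs) the ratio was 40.2 (24.2 to 72.2), against TAPs (16 UMIs) 44.6 (27.3 to 78.5), against neuroblasts (14 UMIs) 110 (65.3 to 203), and against microglia, with 1 UMI, 81.9 (14.7 to 3240). In activated NSCs Psmb11 was also called higher than in quiescent NSCs, on these 15 against 2 UMIs. The count filter was run once over all classes, and Psmb11 was at 1.17 CPM in activated NSCs. The gene was tested there because of its level in ensheathing glia, so this call carries no weight.
A Psmb11 UMI was found in 513 of 2024 ensheathing glia (25.3%, exact 95% interval 23.5 to 27.3%, median depth 8001 UMIs) and in 53 of 16031 other cells (0.331%, median depth 6276). The interval pools the cells of all libraries and covers counting error only, and by library the share was 22.9, 27.2, 22.5 and 26.2%. With each cell thinned to 4000 UMIs, which left 1880 and 12910 cells, the shares were 16.3% and 0.163%. Quiescent-type cells with a rest-of-brain hashtag, the tissue that gave 98.3% of the ensheathing glia with a hashtag, had a UMI in 1 of 647 cells (0.155%).
Among ensheathing glia the gene was uneven. Its 3 clusters had a UMI in 34.8% (1105 cells), 21.3% (305 cells) and 10.3% (614 cells) of cells and levels of 69.7, 43.5 and 13.8 CPM. This order held in each of the 4 libraries, the highest cluster ranging from 66.8 to 86.1 and the lowest from 10.0 to 17.9 CPM.
By the gene bounds of GENCODE, Psmb11 lies 3410 bases from Psmb5, which is on the opposite strand. The RefSeq start, from which the Psmb11 stretch shown was taken, lies inside these bounds. On its other side, 1674 bases from its end, the cadherin gene Cdh24 (minus strand) runs toward it, and Cdh24 moved with it: 106, 96.5, 73.7 and 82.7 CPM in ensheathing glia and 2.63, 1.88, 1.27 and 1.15 in quiescent NSCs. Both genes had the same order of libraries in ensheathing glia, and Acin1, beyond Cdh24, was at 129 ± 8 and 128 ± 11. The strand setting of the counting is not given in the sources used here. Whether transcripts of Cdh24 enter the Psmb11 count was not tested. By the measure given above for Psmb5 and Psma3, 9.04% of the stretches in the Psmb11 transcript ends were shared with 731 other genes. Whether transcripts of these genes enter the Psmb11 count was not tested either.

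**Figure D4:**
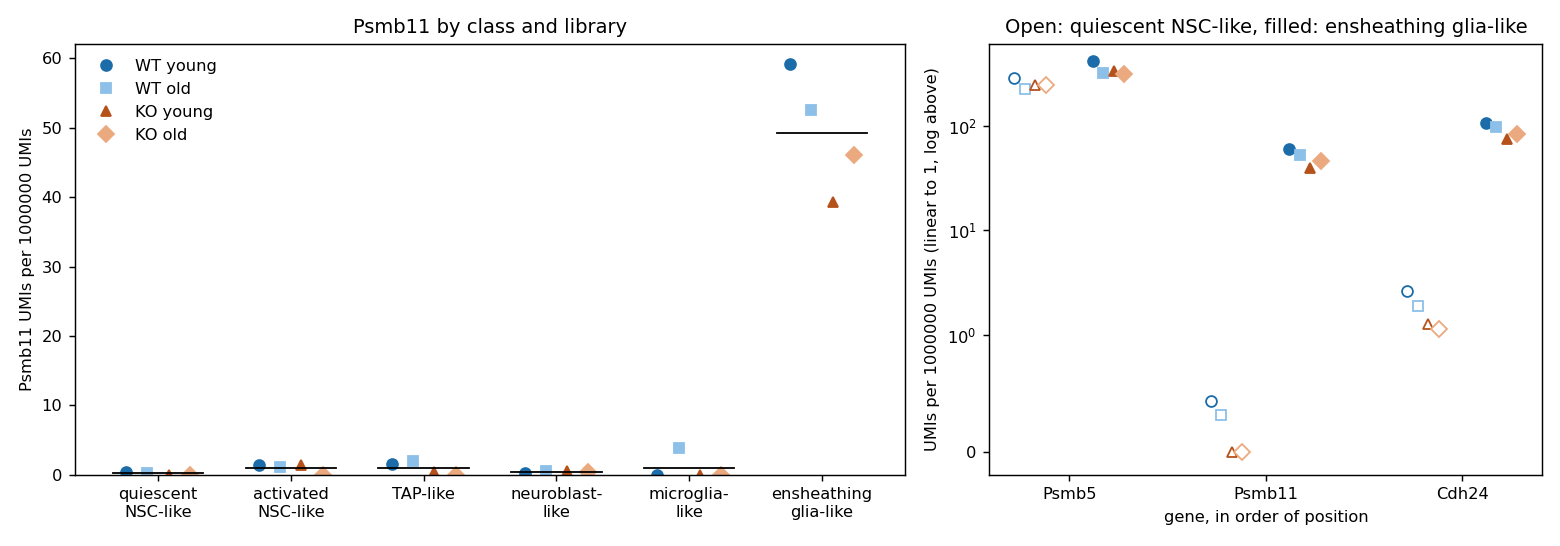
Psmb11 by cell class (left), and Psmb5, Psmb11 and Cdh24 in quiescent NSC-like (open) and ensheathing glia-like cells (filled), in UMIs per 1000000 UMIs (right; log axis above 1); points are libraries. Psmb11 was at 39.2 to 59.1 in ensheathing glia-like cells, and Cdh24 was higher there too.

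Of 31 other genes of the pathway, 15 were higher and 7 lower in activated than in quiescent NSCs, beside 30.1% and 35.9% of all genes. In TAPs against activated NSCs 7 were higher and 4 lower (background 21.2% and 19.7%), and in neuroblasts against TAPs 6 and 14 (25.3% and 26.8%). The remaining subunits and bound deubiquitinases (Adrm1, Sem1, Uchl5 and Usp14) were higher in activated NSCs in 4 of 4 and lower in neuroblasts than in TAPs in 4 of 4, Sem1 by 1.53 ± 0.10 in the first. Psmb8, Psmb9 and Psmb10 were lower in activated NSCs, 3 of 3, though with coarser clusters Psmb8 (0.04) and Psmb9 (0.85) were not. In microglia 15 were higher and 8 lower than in quiescent NSCs (26.2% and 33.9% of all genes). In ensheathing glia 6 were higher and 7 lower, near the background of 26.2% and 25.7%, and the proteasome activators Psme1 (0.83 ± 0.11) and Psme2 (1.21 ± 0.08) were the highest of them. Nfe2l2, a transcription factor that acts on antioxidant response elements, was at 181 ± 9 CPM in quiescent, 108 ± 5 in activated, 40.9 ± 11 in TAP and 9.84 ± 1.7 in neuroblast libraries. Nfe2l1, which encodes the factor known to raise proteasome genes when the proteasome is inhibited, did not pass between quiescent and activated NSCs (0.06 ± 0.11), was lower in TAPs than in activated NSCs (-0.50 ± 0.12) and higher in neuroblasts than in TAPs (0.30 ± 0.12). With Ddi2 and Ngly1, which act on the Nfe2l1 protein, these genes make a list of 4, of which 0 were higher and 2 lower in activated NSCs, 0 and 2 in TAPs, and 1 and 1 in neuroblasts, each against the class before.

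In the age comparisons the quiescent NSCs of single mice were summed, with 2 mice per group. Time from tamoxifen was 6 weeks in WT young and 9 weeks in the other groups. In each comparison that uses WT young, it cannot be told apart from age or genotype. The KO old mice (92 to 105 weeks) were also older than the WT old mice (80 weeks), so that comparison mixes genotype and age. The 37 genes summed to 5198 and 5125 CPM in the mice of WT young, and to 4278 and 4172 CPM in those of WT old. The KO young pair had 4544 and 4542 CPM, the KO old pair 4415 and 4193 CPM. The WT young mice lay above all others, and KO young lay above KO old by a smaller step. Between WT old and WT young, 1 of 35 genes tested was higher and 11 were lower, beside 7.66% and 8.17% of 10376 genes; the median was -0.26 (all genes 0.03). The core particle held most of the lower calls: 6 of the 7 beta ring genes, Psma4 and Psma7, with Psmc3, Psmc5 and Psmd13 from the regulatory particle.
Psmb6 was at 177 and 201 CPM in WT old mice and 307 and 263 in WT young mice (-0.56 ± 0.11, edgeR adjusted p = 0.00053). Psmd13 was at 36.7 and 48.2 against 78.1 and 78.0 (-0.82 ± 0.18, edgeR adjusted p = 0.0018). In both genes the old mice lay below the young ones. The other 9 ranged from -0.50 (Psmc3) over -0.44 (Psmb4), -0.43 (Psmb2), -0.41 (Psma4), -0.37 (Psmc5), -0.36 (Psmb3), -0.35 (Psmb5) and -0.33 (Psma7) to -0.31 (Psmb1). Psma3 was higher in WT old mice (24.5 and 19.2 against 8.54 and 11.6, 1.02 ± 0.35), with the count uncertainty given above.
These calls rest on few mice and on which quiescent cells are summed. The quiescent cluster richest in eYFP UMIs held 49.5% (WT) and 38.5% (KO) of the quiescent cells of the young libraries, but 15.3% (WT) and 16.4% (KO) of those of the old libraries. Without it 3 genes were lower and 0 higher, counts with no share of all genes beside them. WT young mice then stood at 4812 and 4645 and WT old mice at 4147 and 4146 CPM. Without WT young mouse 2 the count was 3 and without WT old mouse 2 it was 4, and without either other mouse 7.
Of the 31 other pathway genes tested, 3 were lower in WT old mice, beside 8.17% of all genes, and 0 higher: Pomp (-0.39 ± 0.13), Psme2 (-0.70 ± 0.17) and Ubb (-0.38 ± 0.07).

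**Figure D5:**
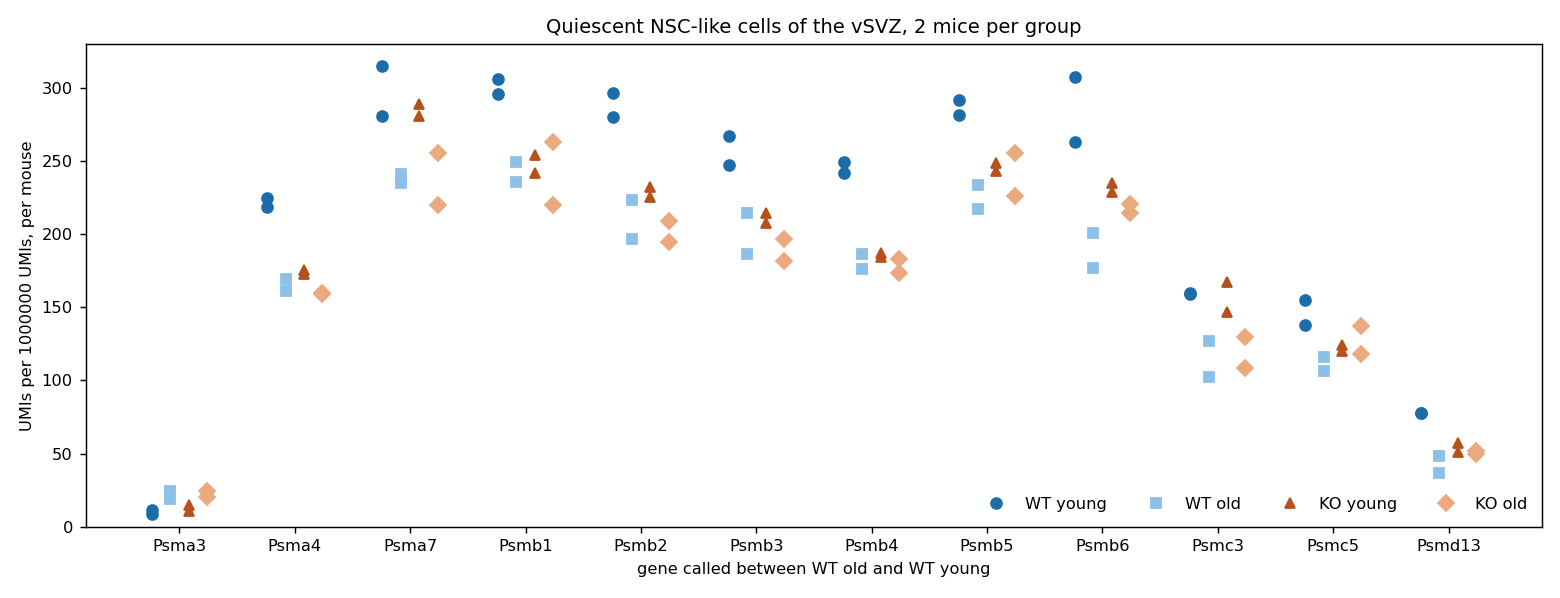
UMIs per 1000000 UMIs in quiescent NSC-like cells of the vSVZ for the 12 genes called between WT old and WT young; each point is 1 mouse, with 2 mice per group. For Psmb6 the WT old mice (177 and 201) sat below the WT young mice (263 and 307).

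In KO mice, 0 of 35 genes were called between old and young, beside 4.38% of all genes. At an unadjusted p under 0.05 there were 4, and DESeq2 called 0. In this and the following comparisons, shares of all genes are at the adjusted p. The counts at an unadjusted p have no matching share beside them. Psma3 had the smallest p (0.87 ± 0.28, edgeR adjusted p = 0.071), and 1 of the 31 other pathway genes was called, the inducible subunit Psmb8, which was higher (1.59 ± 0.36). The difference between the age effects was itself tested: 0 genes were called (1.18% of all genes), 9 had an unadjusted p under 0.05, DESeq2 called 0, and the gene with the smallest p was Psmb6 (0.49 ± 0.15, edgeR adjusted p = 0.10).
Between KO young and WT young, which uses the same WT young mice as the age comparison, Psmb4 was the gene called, lower at 184 and 187 against 242 and 249 CPM (-0.38 ± 0.10, edgeR adjusted p = 0.035), beside 2.92% of all genes. The call was lost with DESeq2, without the filter on low counts, without the eYFP-rich cluster and without any 1 of the 4 mice. Between KO old and WT old 0 genes were called (0.241% of all genes; 2 at an unadjusted p under 0.05, and 0 by DESeq2), and the smallest p was that of Psma1 (0.28 ± 0.13).

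In ensheathing glia, 36 genes were tested in the mice and 0 were called in each comparison by edgeR or by DESeq2. The background is again the share of all genes called at the adjusted p, which is no background for counts at an unadjusted p. For WT old against WT young the background was 1.96%, 12 genes had an unadjusted p under 0.05, and Psma2 was closest (203 and 195 against 255 and 276 CPM, -0.45 ± 0.13, edgeR adjusted p = 0.081). For KO old against KO young it was 0.278%, with 4 such genes and Psmd11 (-0.37 ± 0.14) closest, for KO young against WT young 0.585%, with 5 and Psma5 (-0.57 ± 0.17), and for KO old against WT old 0.387%, with 1, which was Psmc3 (0.37 ± 0.12). The difference of the age effects had a background of 0.0%, with 6 genes at an unadjusted p under 0.05 and Psma5 (0.63 ± 0.20) closest. Of the 31 other pathway genes, 2 were called in WT old against WT young: Pomp (-0.55 ± 0.14) and Ubb (-0.48 ± 0.09), both lower. The summed level was 4692 and 4790 CPM for the WT young pair, 4080 and 4149 CPM for the WT old pair, 4159 and 4526 CPM for the KO young pair and 4099 and 3997 CPM for the KO old pair.
Microglia allowed the comparison of KO young with WT young alone, with 31 genes tested: 0 were called (0.573% of all genes), 0 had an unadjusted p under 0.05, DESeq2 called 0, and Psmd7 was closest (104 and 81.3 against 145 and 131 CPM, -0.65 ± 0.33).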

How the data were processed

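The authors deposited UMI counts per gene and cell barcode and hashtag counts per barcode; per the labels and the study's methods, reads were pseudoaligned with kallisto and bustools, the submitters' processing notes name GRCm38 and Scanpy 1.6.0, and index-hopped reads were removed. The annotation release is not given in the sources used here. Barcodes with 1000 to 20000 UMIs, 100 to 6000 genes and at most 10% mitochondrial UMIs were kept; 335 doublets called by Scrublet were removed. The WT young library had the lowest median depth. Cells were clustered (Scanpy 1.11.5, 2000 variable genes, 50 components, Leiden resolution 1), and hashtags were called by a mixture model. Raw counts were summed per library and class, or per mouse and class (at least 20 cells), and tested with edgeR 4.0.16 (quasi-likelihood, filterByExpr, TMM, Benjamini-Hochberg, threshold 0.05), with DESeq2 1.42.0 as an alternative. Levels are UMIs per 1000000 UMIs of the summed cells, and errors are SD over libraries or SE of the log2 difference. The libraries pair the classes, since the classes of a library come from the same mice and reaction, which is why the library is a block. Named genes are, in each class comparison, those with the largest and smallest difference in each of 4 groups of subunits, the catalytic subunits, the chaperones, the genes that are no subunit of the 26S proteasome and genes called against the median; in each mouse comparison, the genes called or else the one with the smallest p. Psmb8 to Psmb10, Psme1, Psme2, Sem1, Nfe2l1, Nfe2l2, Pomp and Ubb come from a list of 31 related genes (1 further gene of the list is not reported here), and Cdh24 was singled out after its values were seen. The genes and lists were chosen with earlier results of these data known. Scripts were tested on simulated data. Gene positions and transcript ends are from GENCODE (GRCm38), promoters from RefSeq. 1 sample without a group was not used.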

Additional observations from a re-analysis of the deposited data

Results flagged for a closer look

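In each class, the 4 libraries were compared for every gene and group of genes, and 10 of 192 sets had an extreme library whose gap to the next, as a share of the range, passed Dixon's 95% value; chance flags about 1 in 20, and the 4 libraries belong to 4 different groups. WT young was the high library in 8 of them. The share of the range taken by the gap was 0.888 for the summed alpha ring in neuroblasts (1889 CPM in WT young, 1572 to 1607 in the others), 0.869 for the alpha ring (1131 against 918 to 946) and 0.853 for the beta ring (1650 against 1326 to 1374) in ensheathing glia, and 0.899 for Psmb4 in quiescent NSCs (246 against 179 to 186). In ensheathing glia it was 0.896 for Psmb4 (204 against 158 to 163), 0.879 for Psmb6 (238 against 191 to 196) and 0.908 for Psmd7 (213 against 163 to 168), and in TAPs it was 0.837 for Psma1 (224 against 185 to 191).

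In neuroblasts the low library was KO old for Psmc1 (0.854; 97.1 against 110 to 113 CPM) and WT old for Psmc3ip (0.849; 24.0 against 28.8 to 29.6). The part of age, genotype, time after tamoxifen and reaction in these values cannot be told apart.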

How the results depend on the processing

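Between classes, the count of genes higher in activated than quiescent NSCs (26) was 13 with Leiden resolution 0.5 and 21 to 30 without 1 library; the lower gene was not called (0) against the eYFP-rich quiescent cluster alone. For TAPs against activated NSCs (19 higher, 0 lower), plain library sizes gave 5 and 4, no filter 9, no replicate block 9, Leiden resolution 0.5 gave 32, and leaving out a library 6 to 18. For neuroblasts against TAPs (20 lower), no replicate block gave 13 and leaving out a library 14 to 20; the block moved no other count of 2 or more by over 1.5 times. The 1 gene lower in neuroblasts than in quiescent NSCs became 3 with DESeq2 size factors, 5 with DESeq2, 0 with plain library sizes, no replicate block, quiescent cells of every tissue, the eYFP-rich cluster alone or Leiden resolution 0.5, and 0 to 2 without 1 library. For microglia, 0 higher became 1 with plain library sizes or the eYFP-rich cluster alone, 2 with Leiden resolution 0.5 and 0 to 1 without 1 library. For ensheathing glia, 6 lower became 14 with plain library sizes, 10 with DESeq2, 2 with the eYFP-rich cluster alone and 3 to 5 without 1 library. Leiden resolution 0.5 moved the summed level of activated NSCs from 7326 to 5900 CPM. Between mice, the genes lower in WT old quiescent NSCs (11) were 5 with DESeq2, 4 with a strict hashtag call, 3 without the eYFP-rich cluster and 3 to 7 without 1 mouse; the higher gene was not called (0) in the same settings and without any 1 mouse (0 to 0). The gene lower in KO young than WT young (1) was not called (0) without a filter, with DESeq2, without the eYFP-rich cluster or without any 1 mouse (0 to 0). The cause was not tested. Shares of all genes called are given for the main settings alone, so the counts under other settings have no background here.

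The direction turned in 11 single values. With plain library sizes these were, for TAPs against activated NSCs, Psma4 (-0.22) and Psmd1 (-0.24), and Psmd9 for activated against quiescent NSCs (0.30). With Leiden resolution 0.5 they were Psmc5 in TAPs against activated NSCs (0.27), Psmb8 (0.042) and Psmb9 (0.85) in activated and Psmb3 (0.24) in neuroblasts against quiescent NSCs. Against the eYFP-rich quiescent cluster alone they were Psme2 in activated NSCs (-0.13) and neuroblasts (-0.20), Psmg4 in neuroblasts (-0.076) and Usp14 (0.12) in ensheathing glia. Of the other values of single genes, 2311 kept direction and side of the threshold, 303 lost the call and 39 gained it.

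For age and genotype between mice, no paired analysis was possible because the hashtag numbers of different groups name different mice and each group has 1 library; the class comparisons were paired, with the library as the replicate block. Sums of 36 cells (TAPs of WT old) to 43 cells (microglia of the old libraries) limit the precision of these classes.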
